A study of Zea mays with 2 samples.

Results

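Gamma, beta and delta zeins are the smaller classes of maize prolamins, the alcohol-soluble storage proteins of the kernel, and 2 genes of these classes were measured among 33283 genes in maize (Zea mays) endosperm. They are dzs18 (GRMZM2G100018), an 18 kD delta zein, and gz50 (GRMZM2G138689), a 50 kD gamma zein. Genes were taken whose description holds the word zein together with gamma, beta, delta or a size of 10, 15, 16, 18, 27 or 50 kD, or the name glutelin-2, and a pair of gene IDs known for gamma zeins was added where present. Descriptions with alpha, binding or related were left out. Only dzs18 was found by its description, and gz50, described in the files as an uncharacterized protein, was found by its ID. Of the other known genes of these classes, the IDs of 3 (gz27, gz16 and bz15) have no value in these data, and dzs10 was not analysed here. The 2 genes therefore do not stand for the classes.

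The tissue was endosperm, the storage tissue of the kernel, at 15 days after pollination, with 1 library value per gene from the defective kernel mutant dek33 and 1 from wild type. RNA was sequenced on an Illumina instrument, and per the series text the profiles were made in triplicate, while the files give 1 value per gene and genotype. The sources used here name neither the inbred background, nor the dek33 allele, nor the number of kernels per sample. Levels are FPKM, fragment counts scaled for the length of the transcript and the size of the library. With 1 value per genotype there is no replicate check and no test, and every difference below compares these libraries. In whole endosperm, fewer cells of a type and less RNA per cell cannot be told apart.

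Zeins are made on the rough endoplasmic reticulum and are kept inside it as protein bodies. In the accepted picture of maize protein bodies, cysteine-rich gamma and beta zeins gather first and form the outer layer, and alpha zeins, the most abundant class, fill the core together with delta zeins. Delta zeins are rich in methionine, an amino acid that alpha zeins lack almost entirely, and so matter for the sulfur content of the grain. Gamma zeins form disulfide bonds with each other and hold the body together.

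The delta zein had a lower level in the dek33 library, and the gamma zein was abundant in the dek33 library and listed at 0 in wild type. The gene dzs18 had 624 FPKM in dek33, against 1162 FPKM in wild type. It was 1.86-fold lower in dek33, a log2 ratio of -0.90 on the log2(FPKM + 1) scale used throughout. The gene gz50 had 4099 FPKM in dek33 and was listed at 0 in wild type. No fold is given for gz50, because a listed 0 in a file without read counts can be a failed estimate. By level per transcript length, gz50 stood above dzs18 in dek33, and that order cannot be read in wild type. By rank among all genes, dzs18 was number 103 in dek33 and number 48 in wild type, and gz50 was number 17 in dek33.

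The limit for calling a gene higher or lower was 2-fold, for genes that reached 5 FPKM in either library. By this rule dzs18 was neither, although it came close to the limit. The rule counted gz50 as higher, but only through its listed 0. Of the 14348 genes that reached 5 FPKM, 14.8% were higher in dek33 and 4.02% were lower, so 1 of 2 members called higher rests on no measured wild type level.

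**Figure D1:**
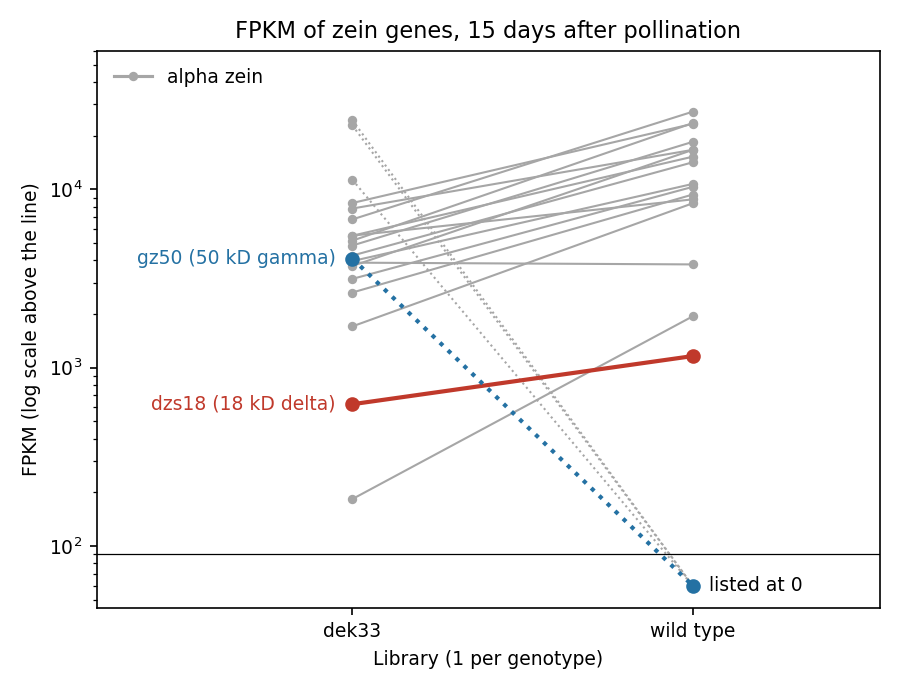
FPKM of 20 zein genes in the dek33 library (left) and the wild type library (right), with 1 line per gene, on a log scale above the horizontal line. The delta zein dzs18 (red) has 624 in dek33 against 1162 in wild type, and dotted lines mark gz50 (blue) and 3 alpha zeins (grey) that are listed at 0 in wild type.

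Whether dzs18 passed the limit depended on the scaling of the libraries. Values in dek33 exceeded those in wild type for most genes, with a median log2 ratio of 0.44 over the 21688 genes with at least 1 FPKM in 1 or both libraries, a factor of 1.36. Relative to that median dzs18 had a log2 ratio of -1.34, or 2.53-fold lower in dek33, and was then counted as lower, as were 6.79% of all genes at or above 5 FPKM. It was also past the limit with 3 other scalings, at -1.41 with a trimmed mean, -1.39 with the upper quartile and -1.34 with equal totals outside the zeins. As deposited, 4.95% of the expressed genes had a log2 ratio at or below that of dzs18. Among 60 genes not described or named as zeins, with at least 500 FPKM in both libraries and a median of 0.44, 2 had a log2 ratio at or below that of dzs18. They were alpha globulin and AF546187.1_FG009, which has no description and was not checked for being a zein. The 60 leave out genes that are alpha zeins by their RefSeq symbol alone (z1), of which 3 of that level also lay at or below dzs18.

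**Figure D2:**
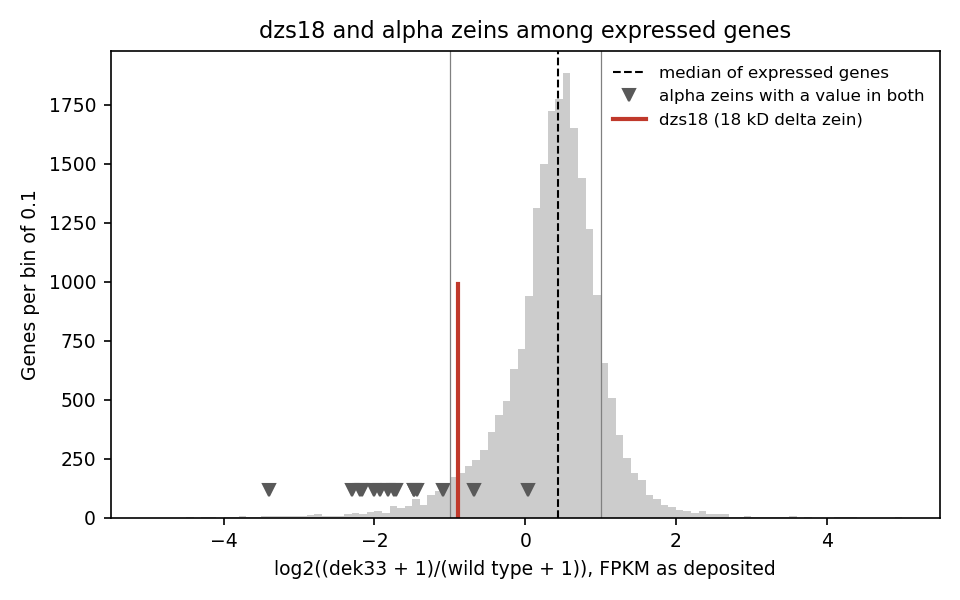
Number of genes by log2((dek33 + 1)/(wild type + 1)) for the 21688 expressed genes (22 genes lie beyond the axis), with thin lines at the 2-fold limits. The red line of dzs18 at -0.90 lies below the median of 0.44 (dashed). Of 15 alpha zeins with a value in both libraries (triangles, placed at an arbitrary height), 13 lie further left.

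Compared with the alpha zeins that had a value in both libraries, dzs18 differed less between the libraries than most of them. Of 18 alpha zeins, 15 had a value in both libraries, and their median log2 ratio was -1.74. The other 3 were listed at 0 in wild type and were the 3 highest of all genes in dek33, at 24482, 22884 and 11333 FPKM. They have no ratio, so the median and the counts that follow do not cover the class as a whole. Of these 15, 13 were lower by at least 2-fold in dek33, 0 were higher and 2 were neither. The same 13 had a lower log2 ratio than dzs18, and 2 had a higher one. The 2 above it were 22kD alpha zein 4 (GRMZM2G346897), with 3886 FPKM in dek33 against 3799 FPKM in wild type, and 19kD alpha zein D1 (AF546187.1_FG001), with 5508 FPKM in dek33 against 8799 FPKM in wild type. At the other end, 22kD alpha zein 5 (GRMZM2G088365) had 183 FPKM in dek33 against 1941 FPKM in wild type. These 3 were chosen for their place in the order after their values were seen. The most abundant pair in wild type, alpha zeins A30 (GRMZM2G353268) and 19A2 (GRMZM2G008341), were 4.02-fold and 4.56-fold lower in dek33. Alpha zeins are families of near-identical copies that can exchange reads, so single alpha zein values are uncertain. Exchange of reads between dzs18 and dzs10, a related delta zein, was not tested.

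The level of dzs18 was small beside the described alpha zeins in both libraries. In dek33 it stood at 14.7% of the alpha zein median of 4258 FPKM, over the 15 with a value in both, and in wild type at 8.19% of the alpha zein median of 14200 FPKM. In dek33 1 of the 15 had a lower FPKM than dzs18 (22kD alpha zein 5), and in wild type 0 of the 15 did. With 7 z1 genes added after the data were seen, 5 of 22 were below dzs18 in dek33 and 3 of 22 in wild type, and dzs18 stood at 18.2% of their median in dek33 and 12.8% in wild type. A ratio of genes within 1 library does not change with the scaling between libraries. With either set dzs18 was therefore nearer to the median in dek33 whichever scaling is used. Both sets leave out the 3 alpha zeins listed at 0 in wild type, so this holds only for the zeins with a value in both. Over all 20 zeins, dzs18 was a smaller share of the summed FPKM in dek33 than in wild type (0.477% against 0.554%).

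The share of dzs18 in all zein FPKM had no single direction. Over all 20 zeins (both members and 18 alpha zeins), dzs18 made up 0.477% of the zein sum in dek33 and 0.554% in wild type. Without the 4 zeins listed at 0 in wild type, it made up 0.916% in dek33 and 0.554% in wild type. The direction turned because those 4 genes carry FPKM in the dek33 sum alone. They took the dek33 sum to 130966 FPKM, against 209998 FPKM in wild type, and without them the dek33 sum was 68168 FPKM. The gamma zein gz50 made up 3.13% of the dek33 sum of 20 zeins.

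**Figure D3:**
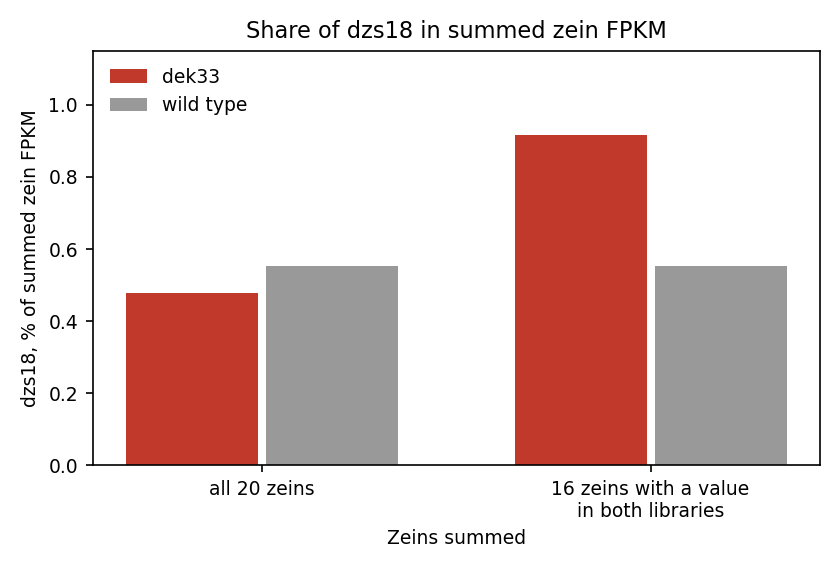
Share of dzs18 in summed zein FPKM, in percent, in the dek33 library (red) and the wild type library (grey), over all 20 zeins and over the 16 with a value in both libraries. The dek33 bar is below the wild type bar over all zeins (0.477% against 0.554%) and above it without the zeins listed at 0 (0.916% against 0.554%).

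The listed 0 of gz50 belongs to a small group of genes. Of 68 genes with at least 1000 FPKM in dek33, 4 were listed at 0 in wild type, and all 4 were zeins: gz50 and the alpha zeins A20 (AF546188.1_FG005), 19C2 (AF546188.1_FG007) and PMS2 (GRMZM2G008913). Of 53 genes with at least 1000 FPKM in wild type, 0 were listed at 0 in dek33. Between 100 and 1000 FPKM, 1 of 918 genes in dek33 was listed at 0 in wild type, and 1 of 541 genes in wild type was listed at 0 in dek33. In dek33 gz50, at 4099 FPKM, lay within the range of the 15 alpha zeins with a value in both, which ran from 183 to 8396 FPKM. In wild type the same 15 alpha zeins ran from 1941 to 27300 FPKM. The summed FPKM of both members was 4723 in dek33 and 1162 in wild type, a ratio of 4.06, and without gz50 the ratio was 0.537. The sum therefore takes its direction from the listed 0, and no median over the 2 members is given.

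Both genes lie in single-gene loci of the B73 RefGen_v3 assembly, with no other listed gene overlapping them. The locus of dzs18 is on chromosome 6 from 121573176 to 121574010, and that of gz50 on chromosome 7 from 120206897 to 120208211. The files give no strand and no exon boundaries, so the loci are given without exons or UTRs. Within 500 kb of dzs18, 12 listed genes had at least 5 FPKM, of which 3 were higher in dek33 and 0 lower, beside 14.8% higher and 4.02% lower over all genes, and the median log2 ratio of the 16 expressed ones was 0.62. The nearest, GRMZM2G136750 at 5.49 kb, had 2.24 FPKM in dek33 against 1.01 FPKM in wild type. After centring 0 of the 12 were higher and 0 lower. With so few genes these counts do not set the neighbours apart from all genes. Within 500 kb of gz50, 8 listed genes had at least 5 FPKM, 3 of them higher in dek33 and 1 lower, and after centring 2 higher and 1 lower, counts too small to set against the shares over all genes. The 3 higher ones were histones, H2B.1 (GRMZM2G071959) and H4 (GRMZM2G072855 and GRMZM2G073275). The lower one, GRMZM2G117230, at 63.2 kb and with no known function in the files, had 0.842 FPKM in dek33 against 23.3 FPKM in wild type. The nearest gene by the files at or above 5 FPKM is GRMZM2G138976, an ARID-type transcription factor 29.6 kb away, with 24.9 FPKM in dek33 against 18.9 FPKM in wild type. In the RefSeq gene table, gz27 lies between gz50 and that gene.

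The abundant genes whose ratio was nearest to that of dzs18 were storage protein genes in part. Likeness was the distance in log2 ratio over the 2 libraries, among genes outside the described zeins with at least 500 FPKM in both, and with 2 libraries it says no more than that the ratios were close. The nearest was alpha globulin (GRMZM2G410134), a non-zein storage protein of the endosperm, with 1605 FPKM in dek33 against 3025 FPKM in wild type, a log2 ratio of -0.91. The next were AF546188.1_FG002 at -0.79 and AF546187.1_FG009 at -1.09, neither with a description. Both share the first part of their IDs with described alpha zeins, and whether they are zeins was not tested. Zinc finger protein1 (GRMZM5G836222) followed at -0.58, and GRMZM2G388461, which the RefSeq table names z1C1_2, an alpha zein symbol, at -1.25.

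None of the listed zein regulators that reached 5 FPKM was lower by 2-fold in dek33, as is the case for most genes. Listed regulators that matched no gene ID by name, among them NAC transcription factors, are not covered. Of 7 listed regulator IDs, a pair of which (GRMZM2G146283 and GRMZM2G146267) belong to PBF, 5 had at least 5 FPKM, of which 1 was higher in dek33 (14.8% of all genes were), 0 were lower (4.02% of all genes were) and 4 were neither. None of the 5 passed the limit in either direction after centring. Opaque-2 (GRMZM2G015534), a bZIP activator of zein genes, had 466 FPKM in dek33 against 245 FPKM in wild type. The gene fl3 (GRMZM2G006585), a PLATZ protein of the endosperm and the 1 higher member, had 447 FPKM in dek33 against 213 FPKM in wild type. The other members, among them the prolamin box binding factor PBF and the Opaque-2 partners ohp1 and ohp2, were under 100 FPKM in both libraries. The median log2 ratio over all 7 IDs was 0.58, against 0.44 for all expressed genes. With Opaque11 (GRMZM2G147685) added after the data were seen, a transcription factor of the endosperm with 65.4 FPKM in dek33 against 73.8 FPKM in wild type, the median was 0.42.

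Genes of protein body assembly and folding in the endoplasmic reticulum had ratios near those of all genes. Of 13 at or above 5 FPKM, 2 were higher in dek33, 0 were lower and 11 were neither, near the shares over all genes of 14.8% and 4.02%, and none of the 13 passed the limit after centring. The median log2 ratio of the 13 was 0.47. Endoplasmic oxidoreductin-1 (GRMZM2G108115), added after the data were seen, had 112 FPKM in dek33 against 121 FPKM in wild type. With it, 2 of 14 were higher, 0 lower and 12 neither. Protein disulfide-isomerase (GRMZM2G091481), which forms disulfide bonds such as those of gamma zeins, had 966 FPKM in dek33 against 472 FPKM in wild type, and calreticulin (GRMZM2G358059), a calcium-binding chaperone, had 71.4 FPKM in dek33 against 35.0 FPKM in wild type. Floury1 (GRMZM2G094532), a membrane protein of protein bodies that places the 22 kD alpha zein, had 89.2 FPKM in dek33 against 88.7 FPKM in wild type. Opaque10 (GRMZM2G346263), which helps to order zeins within the body, had 62.8 FPKM in dek33 against 61.7 FPKM in wild type. Calreticulin, floury1 and opaque10, all under 100 FPKM, were named after their values were seen.

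Genes that make or use cysteine and methionine, the amino acids that set gamma and delta zeins apart, had 10 listed members that reached 5 FPKM. Each of the 10 had a higher ratio than dzs18, but so did most genes. Of the expressed genes, 4.95% had a log2 ratio at or below that of dzs18. The list takes in 3 S-adenosylmethionine synthases, which use methionine. Of these 10, 4 were higher in dek33, 0 were lower and 6 were neither, beside 14.8% higher and 4.02% lower over all genes. Centred, 1 of the 10 was higher and 1 lower, when 4.4% of all genes were higher and 6.79% lower. Sulfite reductase (GRMZM2G090338), which makes sulfide for cysteine, had 186 FPKM in dek33 against 43.8 FPKM in wild type, and it was the 1 that stayed higher after centring. Cysteine synthase (GRMZM2G005887), which makes cysteine from sulfide, had 171 FPKM in dek33 against 80.3 FPKM in wild type. The member counted as lower after centring, an S-adenosylmethionine synthase (GRMZM2G117198), had 35.2 FPKM in dek33 against 62.8 FPKM in wild type. With 4 homocysteine S-methyltransferases, enzymes that make methionine, added after the data were seen, 7 of 14 were higher and 1 lower, and after centring 2 were higher and 2 lower. In that added group, homocysteine S-methyltransferase 1 (GRMZM6G310687) had 46.3 FPKM in dek33 against 9.95 FPKM in wild type. Homocysteine S-methyltransferase 4 (GRMZM2G039166) had 10.01 FPKM in dek33 against 98.9 FPKM in wild type, a lower ratio than that of dzs18. The synthase and both methyltransferases were likewise named after their values were seen.

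**Figure D4:**
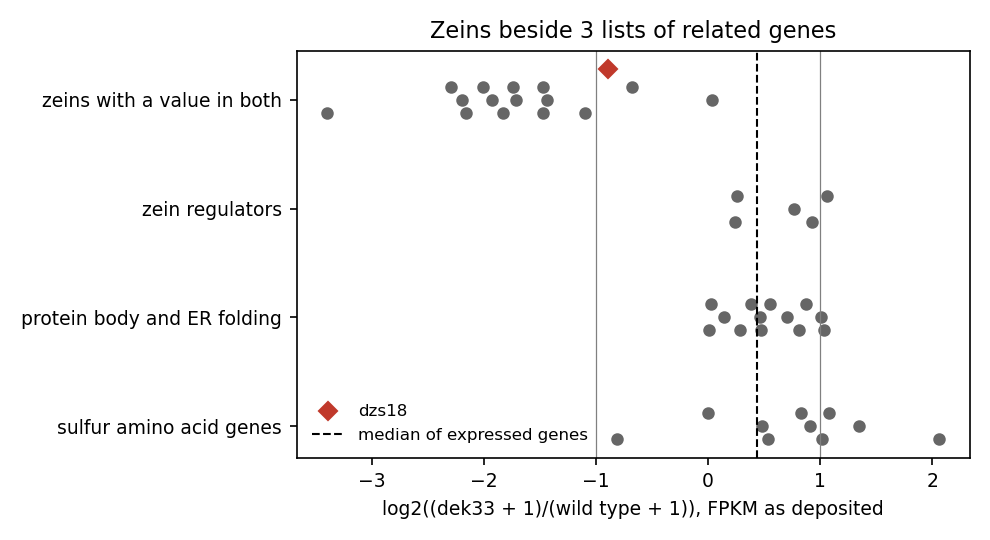
log2((dek33 + 1)/(wild type + 1)) of single genes (points) with at least 5 FPKM in 1 or both libraries, for 15 alpha zeins and dzs18 (red diamond) and for the 3 gene lists as fixed, with thin lines at the 2-fold limits and a dashed line at the median of expressed genes, 0.44. The zein points lie mostly below -1, while 1 point of the 3 lists lies below 0. Genes added to the lists after the data were seen are not drawn, and some of them also lie below 0.

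The libraries carried the markers of starchy endosperm, and embryo markers had much lower values in dek33. Starch synthesis genes sh2, bt2, wx1 and ae1 and the regulator o2 summed to 11099 FPKM in dek33 and 8557 FPKM in wild type. Another match through a shared synonym, GRMZM2G039942, was near 0 in both. Of the 5 summed genes, 1 (ae1) was higher in dek33, 0 were lower and 4 were neither, and none passed the limit after centring. Against the direction of the sum, wx1 had 3036 FPKM in dek33 and 3904 FPKM in wild type. Of 5 embryo and scutellum markers, 4 were lower in dek33 and 1 higher, the last a hemoglobin matched through a shared synonym, and their sum was 388 FPKM in dek33 against 4349 FPKM in wild type. With the hemoglobin dropped and EMB564 (AC233879.1_FG002) matched by its description, both after the data were seen, 5 of 5 were lower, with a sum of 425 FPKM in dek33 against 7829 FPKM in wild type. Of 6 basal transfer layer markers, 2 were lower, 0 higher and 4 neither before centring, and 5 were lower after it. Their sum was 245 FPKM in dek33 against 455 FPKM in wild type. Beside these counts and those of the embryo markers, 4.02% of all genes at or above 5 FPKM were lower and 14.8% higher before centring. After centring, 6.79% of all genes were lower. Aleurone markers had no common direction as deposited, while centred ratios were negative for both, at -1.44 for vp1 and -0.20 for AL-9. The marker vp1 (GRMZM2G133398) had 5.86 FPKM in dek33 against 12.7 FPKM in wild type, and AL-9 (GRMZM2G091054), matched by its description after the data were seen, had 739 FPKM in dek33 against 627 FPKM in wild type. No marker of the embryo, transfer layer or aleurone lists was at 0 in either library. The part of these tissues in the values of dzs18 and gz50 was not tested. PyrR (GRMZM2G090068), the gene known to be affected in dek33, had 6.44 FPKM in dek33 against 4.55 FPKM in wild type, which does not check the labels, since no source used here says what the mutation does to the transcript.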

How the data were processed

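The FPKM values are those the authors deposited, 1 per gene for each of dek33 and wild type. Bowtie 0.12.2 and the B73 RefGen_v3 build are named per the submitters' processing notes. Which program gave FPKM, on which annotation, and how replicates were combined is not stated in the sources used here. A value of 1e-05 stands in the place of 0 in 1330 genes in dek33 and 2022 in wild type, and is written as listed at 0. FPKM carries no read counts, so depth is unknown and no counting interval is given. FPKM summed to 761571 in dek33 and 672660 in wild type.

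Ratios are log2((dek33 + 1)/(wild type + 1)), which understates the change of low genes. Centred ratios have the median of expressed genes subtracted. Starts were raised by 1, because this made the length of 77.7% of 611 short models divisible by 3, and 10.6% without it. Names came from the files and from RefSeq's table of the NAM-5.0 assembly, which matched 18173 IDs (54.6%). No sequence was used here. Listed genes were named at 100 FPKM or more, except where the text says otherwise. Members and lists were chosen with earlier results of these data known. Floury1 met the word rule for zeins and was left out of zein sums after it was seen. The alternatives were other pseudocounts, minimums, scalings and limits, and leaving out zeins listed at 0. The calling rule and the trimmed mean were run on simulated data with planted 4-fold changes. Those data held no gene listed at 0 in 1 library alone, so they do not check the handling of such genes. Python 3.11.15, numpy 2.4.6, pandas 2.3.3 and matplotlib 3.10.9 were used.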

Additional observations from a re-analysis of the deposited data

How the results depend on the processing

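The log2 ratio of dzs18 was negative in every setting run, although a pseudocount or a fold limit could not have changed its sign. It was -0.90 as deposited, with a pseudocount of 0.1 and with a 4-fold limit, and -0.89 with a pseudocount of 5. It passed the 2-fold limit, so that the count of lower members became 1 in place of 0, with centring (-1.34), a trimmed mean (-1.41), the upper quartile (-1.39) and equal totals outside zeins (-1.34). Without genes listed at 0 the count of higher members was 0 in place of 1, and the log2 ratio of the members' sums turned to -0.90, against 2.02 with them, by construction. The log2 ratio of the share of dzs18 among zeins was -0.22 over all zeins. It turned to 0.73 without zeins listed at 0, and to 0.72 when 7 more alpha zein genes named in the RefSeq table were also added, an alternative chosen after seeing the data. Adding those 7 alone gave -0.17, and keeping floury1 -0.22. The same 7 took the level of dzs18 to 18.2% of the alpha zein median in dek33 and 12.8% in wild type, in place of 14.7% and 8.19%. Counts of all genes, higher and then lower, were 2118 and 577 as deposited, 1038 and 347 with a pseudocount of 5, 1203 and 247 at a minimum of 20 FPKM, and 219 and 196 at 4-fold. They were 632 and 974 centred, 632 and 1223 by trimmed mean, 663 and 1174 by upper quartile and 722 and 1083 by totals outside zeins, and 894 were lower without a minimum. Of the 3 pathway lists, counts with corrected spellings moved for the sulfur list only, to 7 higher and 1 lower from 4 and 0. The median over the 2 members was not computed, since gz50 has no fold. No paired analysis was possible because there is 1 sample for each genotype, and no replicate could be left out. Unknown depth limits the precision of every value.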
